A study of Mus musculus with 95 samples.

Results

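The platform annotation pairs 3 of the 12487 probe sets on the array with Adck1 alone, a gene of a mitochondrial protein. Whether these probe sets read Adck1 mRNA was not tested. In order of mean level they were 101319_f_at, 101720_f_at and 102154_f_at, called here the lead, the second and the third probe set. The gene had been chosen by the correlation of its values with the antibody transcripts Igha and Jchain over these same arrays. Their levels, their differences between groups and their correlations are therefore descriptions, given with no test. A gene with several probe sets was represented by the brightest, so the lead probe set stands for Adck1 among the 8252 genes. All levels are log2(intensity + 8), in which an intensity of 0 lies at 3.0.

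The series followed lung RNA of mice housed with a cage mate heavily infected with Pneumocystis murina, a fungus of the mouse lung, and of unexposed mice. It held 95 arrays in 19 groups, 75 of C57BL/6 mice and 20 of CD40L-KO mice, which lack CD40 ligand; 60 arrays were of exposed and 35 of unexposed mice, all labelled female and 8 weeks of age. C57BL/6 mice were exposed for 7 (n = 8), 14 (n = 8), 21 (n = 6), 32 (n = 3), 34 (n = 10), 41 (n = 10) and 75 days (n = 3), with unexposed mice at day 7 (n = 4), 14 (n = 6), 21 (n = 5), 32 (n = 2), 34 (n = 5) and 41 (n = 5). CD40L-KO mice were exposed for 32 (n = 3), 35 (n = 4), 39 (n = 2) and 75 days (n = 3), with unexposed mice labelled day 32 (n = 3) and day 14 (n = 5). The unexposed CD40L-KO mice labelled day 14 were set against the mice exposed for 35 days, because the design text counts 5 unexposed mice in that experiment and no other unexposed CD40L-KO group has 5. The 8 mice of days 39 and 75 belong to no stated experiment and have no unexposed mice of their own. In the experiments of days 7 to 41 no cage held both kinds of mice, and an effect of the cage cannot be told apart from one of exposure. Whole lung homogenate was used, so more cells of a type and more RNA per cell cannot be told apart.

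ADCK1 is a mitochondrial protein of the UbiB family, atypical kinase-like proteins whose best known members, COQ8A and COQ8B, serve the synthesis of coenzyme Q, the electron carrier of the respiratory chain. It is not a component of antibodies. Antibodies are made by B cells and, in large amounts, by the plasma cells that arise from them: a heavy chain, of which Igha encodes the IgA form and Ighm the IgM form, joins a light chain, and the J chain encoded by Jchain links units of IgA and IgM into polymers. CD40 ligand on helper T cells drives B cells to switch from IgM to other antibody classes.

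The promoter windows of Adck1 and Jchain are printed because their probe sets moved together over the arrays, so that the sequence in front of each gene can be compared. Each holds the 250 bases before a gene's start on the gene's own strand, from RefSeq annotation of build GRCm38.p6. The Adck1 window lies at chr12:88360264-88360513 on the plus strand, and the Jchain window at chr5:88527898-88528147 on the minus strand. No letters are in capitals, since no motif match was found.
Adck1: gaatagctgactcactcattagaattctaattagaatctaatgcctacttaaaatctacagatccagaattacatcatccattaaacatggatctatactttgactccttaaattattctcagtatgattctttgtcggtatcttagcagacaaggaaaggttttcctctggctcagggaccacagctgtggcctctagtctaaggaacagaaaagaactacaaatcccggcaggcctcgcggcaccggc
Jchain: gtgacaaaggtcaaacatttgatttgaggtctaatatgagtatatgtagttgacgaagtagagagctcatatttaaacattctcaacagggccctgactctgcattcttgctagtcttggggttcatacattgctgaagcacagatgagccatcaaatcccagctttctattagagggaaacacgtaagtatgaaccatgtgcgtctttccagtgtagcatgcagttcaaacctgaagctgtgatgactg
The immunoglobulin octamer, ATGCAAAT, is the element that antibody gene promoters are known for. It was searched on both strands (its other strand reads ATTTGCAT) and lay in neither window, nor in the window of a second annotated Adck1 start at chr12:88360532-88360781. Of 32851 such windows of all genes, 526 (1.60%) held it. Windows of Igha and of the variable segments were not used here. Adck1 lies on chromosome 12, as do Igha and Ighm, while Igkc lies on chromosome 6 and Jchain on chromosome 5.

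By their type, these probe sets are not specific to a single gene. All 3 carry the suffix _f_at, which in the manufacturer's naming marks a set whose probes are shared by several sequences of a family. Of the 12487 probe sets, 1075 (8.61%) are of that type, against 33 of the 77 immunoglobulin probe sets (42.9%). They are therefore called here the probe sets annotated to Adck1, and whether they read Adck1 mRNA, immunoglobulin mRNA or both was not tested, as probe sequences were not used here.

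Most of the probe sets that correlated best with them were annotated to immunoglobulin genes. Probe sets annotated to Adck1 were themselves left out of the counts that follow. Among the 50 probe sets that correlated best with the lead probe set over the 95 arrays, 35 were annotated to immunoglobulin genes, 14 had no gene symbol and the remaining 1 was Jchain. For the second probe set these numbers were 36, 13 and 1, and for the third probe set they were 35, 14 and 1, again with Jchain as the only other name. Between 39 and 41 of each 50 were of family type. The family type alone did not go with a high correlation. The median Pearson r with the lead probe set was 0.85 over the 33 immunoglobulin probe sets of family type, of which 30 exceeded 0.7. It was 0.45 over the 44 immunoglobulin probe sets of other types, of which 11 exceeded 0.7. It was 0.00 over 913 family probe sets annotated to other genes, of which 0 exceeded 0.7, and 0.05 over 126 family probe sets without a symbol, of which 13 did. All these points share the same 95 arrays, and the correlations chose the gene, so they carry no p-value.

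**Figure D1:**
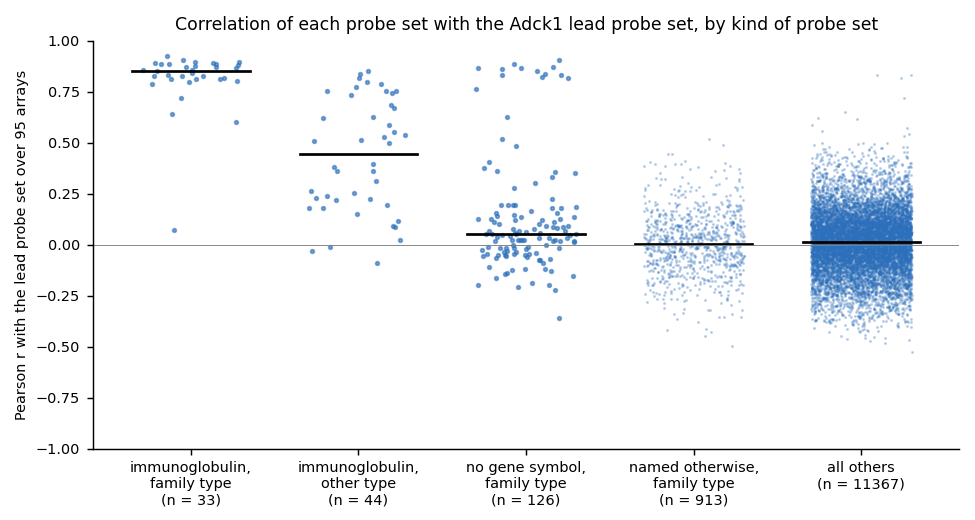
Pearson correlation over the 95 arrays of each probe set with the lead probe set (vertical axis), by kind of probe set (horizontal axis). The immunoglobulin probe sets of family type sit highest, with a median of 0.85, while family probe sets annotated to other genes centre on 0.00.

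Of the library features, 16 arrays held squamous epithelium transcripts, with a mean marker level of 6.28 or more against 5.14 or less on the others. They included 4 of 5 unexposed and 3 of 10 exposed C57BL/6 mice of day 34, and 0 arrays of days 41 and 75. In 5 groups all arrays, 17 in total, had Eif2s3y above Xist although labelled female: the exposed mice of day 75 in both strains and the CD40L-KO mice of days 35 and 39 and the unexposed mice labelled day 14. The lung epithelial transcripts Sftpc and Scgb1a1 exceeded 12.18 on all 95 arrays. Cd40lg, the gene deleted in the CD40L-KO mice, lay between 3.05 and 3.75 on all arrays, too near the lower end of the scale to check the strain.

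The probe sets annotated to Adck1 were highest in C57BL/6 mice exposed for 41 and 75 days. At day 41 the 10 exposed mice ranged from 7.09 to 8.78 with a median of 7.48 on the lead probe set (intensity 128 to 433, median 170). The 5 unexposed mice of that day had 6.12, 5.15, 6.00, 5.70 and 5.45. All 10 exposed mice thus lay above all unexposed mice. At day 75 the 3 exposed C57BL/6 mice had 8.10, 7.54 and 8.00, within the range of the exposed mice of day 41, and the 3 exposed CD40L-KO mice had 4.47, 5.19 and 5.30. Within single arrays, the lead probe set stood at percentile 74.6 to 93.8 of all probe sets in the exposed mice of day 41. Its median percentile was 46.4 over all 95 arrays.

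At day 34 the same probe set spread widely. The 10 exposed C57BL/6 mice ran from 4.42 through a median of 5.53 to 8.18, and the 5 unexposed mice had 6.91, 4.84, 5.69, 5.79 and 5.21. The groups overlapped, with 2 of 10 exposed mice above the highest unexposed mouse. The mouse at 8.18, replicate 10, was also the highest of its group on the second probe set (7.45), on the third probe set (7.53), for Igha (10.78) and for Jchain (9.07). The earlier days lay lower. At days 7, 14 and 21 the medians of exposed mice were 5.01, 5.29 and 5.37, and those of unexposed mice 4.94, 4.97 and 5.27. The highest mouse of these days had 6.63, below every exposed mouse of day 41.

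At day 32 the values were low in both strains. The 3 exposed C57BL/6 mice had 6.11, 5.33 and 5.16 and the 2 unexposed mice 5.67 and 5.16. The exposed CD40L-KO mice had 5.71, 5.76 and 5.25, and their unexposed counterparts 3.97, 5.20 and 4.48. The latter group had the lowest of the 19 means, 4.55 ± 0.62 (SD, n = 3). The CD40L-KO mice of day 39 had 5.04 and 5.06. The 4 CD40L-KO mice exposed for 35 days ranged from 5.41 to 5.78, inside the 5.13 to 5.79 of the 5 unexposed mice.

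**Figure D2:**
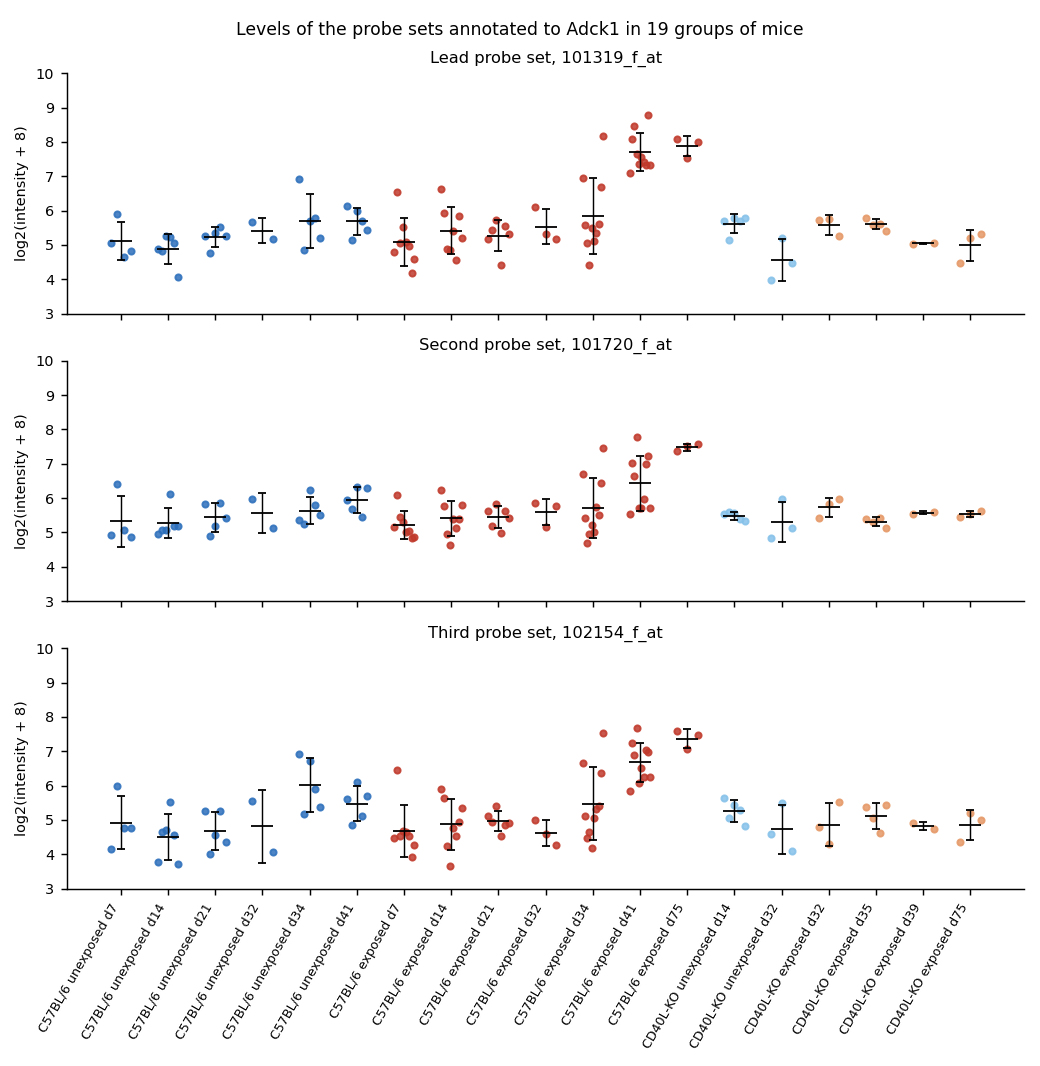
Levels of the 3 probe sets annotated to Adck1, as log2(intensity + 8) (vertical axis), in each mouse of the 19 groups (horizontal axis), with group means and SD as bars. The C57BL/6 mice exposed for 41 and 75 days stand above the other groups on the lead probe set, with means of 7.70 and 7.88.

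Ordered by mean, the lead probe set ran from 7.88 ± 0.30 (SD, n = 3) in C57BL/6 mice exposed for 75 days and 7.70 ± 0.56 (SD, n = 10) at day 41, over 5.84 ± 1.11 (SD, n = 10) in those exposed for 34 days, down to the unexposed CD40L-KO mice of day 32. Of the 18 pairs of neighbours in this order, 17 differed by less than the SD within the pair's groups. The exception was the step of 1.86 from day 41 to day 34 of exposure, against an SD of 0.88, and even there the ranges overlapped. Below that step, 16 further groups followed each other from 5.69 to 4.55 with no gap beyond the spread.

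The other probe sets placed the same groups on top but separated exposed from unexposed mice of day 41 less. On the second probe set the exposed mice of day 41 ranged from 5.55 to 7.78 with a median of 6.31, and 5 of 10 lay above the highest unexposed mouse, at 6.33. On the third probe set they ranged from 5.86 to 7.67 with a median of 6.70, and 8 of 10 lay above the highest unexposed mouse, at 6.11. At day 75 the exposed C57BL/6 mice had 7.37, 7.51 and 7.56 on the second probe set against 5.46, 5.54 and 5.62 in CD40L-KO mice. On the third probe set they had 7.58, 7.07 and 7.46 against 4.35, 5.19 and 5.01. All 3 probe sets thus set the strains apart without overlap at day 75. The probe sets correlated with each other at r = 0.81 to 0.88 over the 95 arrays, and at 0.71 to 0.84 after the group means were subtracted.

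Exposure was compared with its own unexposed mice in 8 comparisons. The difference on the lead probe set, exposed minus unexposed with its standard error from the spread within the 2 groups, was 2.01 ± 0.28 at day 41, about the size of Jchain's 2.00 and somewhat below Igha's 2.46. It was 0.49 ± 0.38 on the second probe set and 1.20 ± 0.30 on the third probe set, so the size depended on the probe set. The only other comparison in which the groups did not overlap on the lead probe set was that of CD40L-KO mice at day 32, with 1.02 ± 0.39. There the second probe set gave 0.42 and the third probe set 0.14, both with overlapping groups. With the mean of all 3 probe sets the differences became 1.23 at day 41 and 0.53 in CD40L-KO mice at day 32. Of the 6 CD40L-KO arrays of day 32, 3 held squamous transcripts, 1 of 3 exposed and 2 of 3 unexposed. Without them the difference was 1.26, with 1 unexposed mouse left. In limma 0.388% of all genes passed the threshold (adjusted p below 0.05) at day 41 and 0.0727% in CD40L-KO mice at day 32.

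In the other 6 comparisons the groups overlapped on all 3 probe sets. On the lead probe set the difference was -0.02 at day 7, 0.52 at day 14, 0.03 at day 21, 0.12 at day 32, 0.15 at day 34 and -0.02 in CD40L-KO mice at day 35. Without the arrays holding squamous transcripts, which left 1 unexposed mouse, the difference at day 34 was 0.61.

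The antibody transcripts did not share each of these steps. Igha rose at day 14, from 6.11 ± 0.71 (SD, n = 6) in unexposed to 7.83 ± 0.33 (SD, n = 8) in exposed mice, a log2 difference of 1.72 (limma, adjusted p = 0.00103), while the lead probe set differed by 0.52 between the same mice. Both overlapped between the groups, with 7 of 8 exposed mice above all unexposed mice for Igha and 4 of 8 on the lead probe set. At day 21 Igha was 1.57 higher with no overlap between 6 exposed and 5 unexposed mice, and missed the threshold of 0.05 narrowly (limma, adjusted p = 0.0584), while the lead probe set differed by 0.03. Whether these pairs of differences differ from each other was not tested. In Igha the strains also lay apart at day 32, at 9.49 ± 0.56 in exposed C57BL/6 and 5.60 ± 0.66 in exposed CD40L-KO mice (SD, n = 3 each), while the lead probe set had 5.53 and 5.57. The difference of Jchain between exposed and unexposed mice was nearer than that of Igha to the lead probe set's in C57BL/6 mice at day 14 (1.11), day 21 (-0.21), day 32 (0.19), day 34 (0.18) and day 41. It was farther at day 7, where Jchain differed by -0.58, Igha by -0.13 and the lead probe set by -0.02. In CD40L-KO mice it was farther too, with -0.02 for Jchain and 0.17 for Igha at day 32, and -0.40 and 0.07 at day 35.

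**Figure D3:**
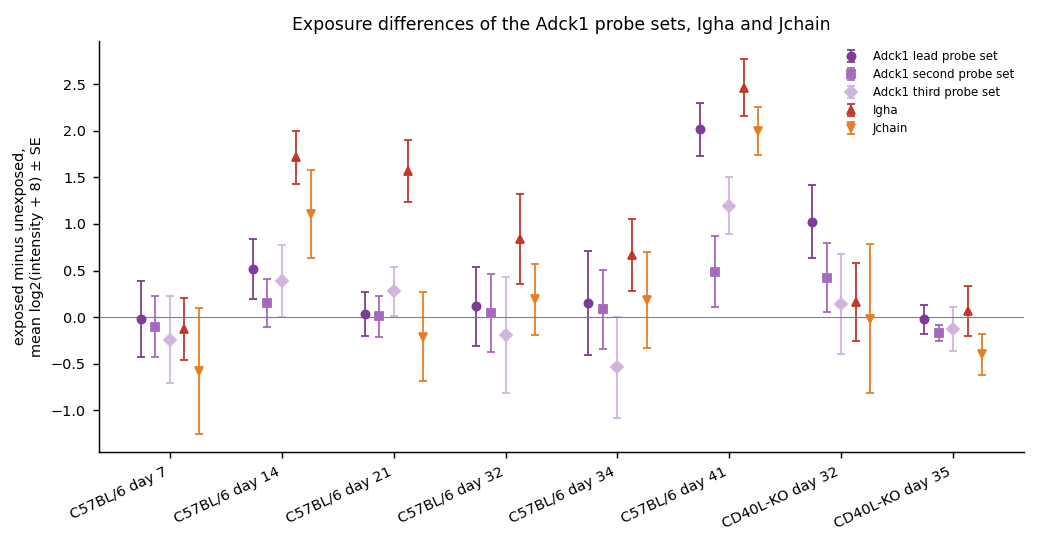
Difference of exposed minus unexposed mice in log2(intensity + 8) (axis of values) with standard errors, in the 8 comparisons, for the 3 probe sets annotated to Adck1, Igha and Jchain. At day 41 Igha (2.46), the lead probe set (2.01) and Jchain (2.00) lie together, while at days 14 and 21 Igha (1.72 and 1.57) lies above the lead probe set (0.52 and 0.03).

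At day 75, where only exposed mice were available, C57BL/6 mice were 2.89 higher than CD40L-KO mice on the lead probe set, 1.94 on the second probe set and 2.52 on the third probe set (n = 3 each). In the same mice Igha was 4.94 and Jchain 3.85 higher. Igha was at 11.13, 10.99 and 11.25 in C57BL/6 and at 6.18, 6.35 and 6.04 in CD40L-KO mice, and Jchain at 9.70, 9.13 and 9.72 against 5.55, 5.85 and 5.59. At day 32, by contrast, the exposed strains differed by -0.04 on the lead probe set with overlapping ranges.

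The 10 genes most like the lead probe set over the 95 arrays all encode antibody parts. They were led by the kappa variable segments Igkv8-19 (r = 0.92) and Igkv6-14 (r = 0.90), the heavy chain variable segment Ighv1-54 (r = 0.89), Igkv14-111 (r = 0.89) and Igkv9-120 (r = 0.89). Igkv4-59 (r = 0.86), Igkv4-68 (r = 0.84), Jchain (r = 0.83), Igkv4-70 (r = 0.83) and Igkv6-23 (r = 0.81) followed, and Igha (r = 0.75) ranked 14 and Ighm (r = 0.75) ranked 16. Of the first 10, 8 are represented by a family probe set, and Igkv4-68 and Jchain are not. The list of 28 measured antibody genes also holds Pigr, a receptor that carries antibodies and is not part of one. Of these 28, 20 had r above 0.5 and the median was 0.75, against a median of 0.00 over the 8223 genes outside that list. Outside it, 5 genes exceeded 0.5: Nnt, a mitochondrial transhydrogenase (r = 0.54), Cxcr3 (0.53), Trav9d-3 (0.52), Igk (0.51) and Cd28 (0.501). Igk is itself a kappa light chain entry that the list did not hold. With each group's mean subtracted their correlations were 0.08, 0.17, 0.10, 0.06 and 0.16. Over the 95 arrays the 5 lowest were the proteasome subunits Psmd7 (r = -0.53) and Psmc5 (r = -0.46), Erdr1 (r = -0.50), the growth regulator Tsc2 (r = -0.48) and Arhgef5 (r = -0.47).

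Subtracting each group's mean, which leaves the differences between mice treated alike, kept 8 of these 10 genes among the 10 highest. Igkv8-19 (0.86) and Igkv6-14 (0.78) stayed first, Igkv4-91 (0.67) and Ighm (0.66) entered the 10, and Jchain had 0.65. Igha did not stay near: its correlation was 0.33, at rank 116 of 8251. The kappa segments were not uniform in this measure, which was 0.35 for Igkv7-33, 0.20 for Igkv2-112 and 0.03 for the kappa segment that was lowest of all antibody genes. Whether these correlations differ from that of Igha was not tested.

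**Figure D4:**
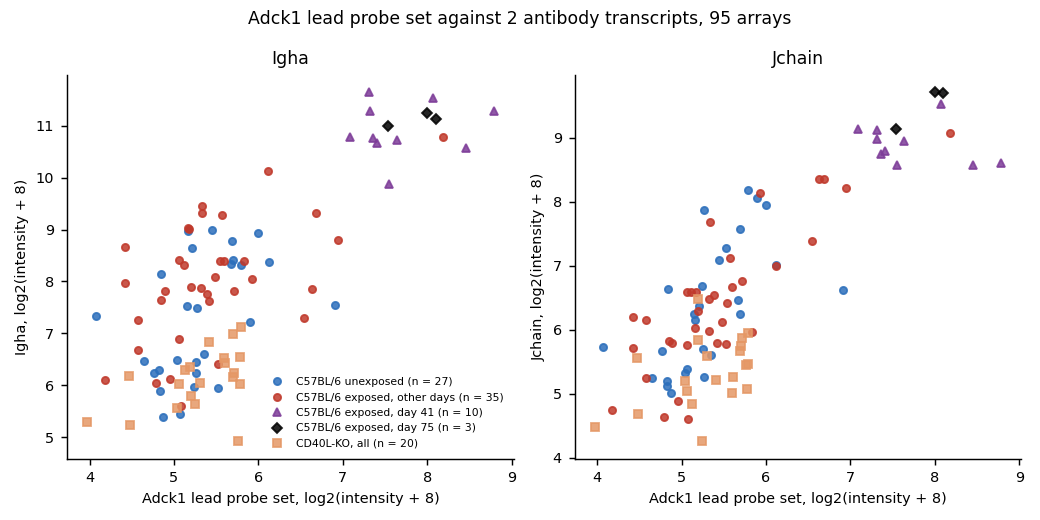
Level of the lead probe set against Igha and against Jchain, both in log2(intensity + 8), with 1 point per array (n = 95). The exposed C57BL/6 mice of days 41 and 75 form the upper right end, and r is 0.75 with Igha and 0.83 with Jchain over all arrays.

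The correlation with both transcripts was uneven over the experiments. With Igha, Pearson's r was 0.75 and Spearman's rho 0.60 over the 95 arrays, and r was 0.44 among the 11 arrays of day 32, 0.80 among the 30 of days 34 and 41, 0.33 among the 37 of days 7 to 21 and 0.12 among the 9 of the CD40L-KO experiment of day 35. With Jchain, r was 0.83 and rho 0.73 over all arrays, and r in the same experiments was 0.66, 0.84, 0.71 and 0.65. Leaving out the 2 arrays farthest from the median gave r of 0.73 with Igha and 0.84 with Jchain. The high groups carried part of both values: without the exposed C57BL/6 mice of days 41 and 75, r was 0.45 with Igha and 0.66 with Jchain over 82 arrays. Among the 35 unexposed mice these values were 0.45 and 0.59. Within the 10 exposed mice of day 41, where every mouse was high, they were 0.12 and -0.30, and within the 10 exposed mice of day 34 they were 0.73 and 0.90.

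The antibody genes as a list were compared over all genes at each time, and the members were chosen with earlier results in view. At day 41, 9 of the 28 measured antibody genes rose and 0 fell (limma, adjusted p below 0.05), against 0.388% of all genes rising and 0% falling. Their median log2 difference was 1.08, against -0.02 over all genes. The largest were Ighv1-54 with 3.36, Igkv9-120 with 2.50, Igha with 2.46 (adjusted p = 4.3e-05), Igkv14-111 with 2.44, Igkv6-14 with 2.25 and Jchain with 2.00 (adjusted p = 0.00714). Igkv4-59 with 1.92, Ighv5-12 with 1.40 and Pigr, the epithelial receptor that carries polymeric IgA into the airway, with 0.90 completed the 9. The variable segments among them, all Ighv and Igkv genes, were read by family probe sets, whose probes are shared by several sequences. Whether their differences are separate readings was not tested. Igkv8-19, the gene most like the lead probe set, differed by 1.14 and did not pass (adjusted p = 0.261). Ighm differed by 0.98 (adjusted p = 0.318) and Ighd, the IgD heavy chain, by -0.23 (adjusted p = 0.906). Without unexposed replicate 2, 5 of the 9 passed.

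At other times single genes of the list passed. In C57BL/6 mice at days 32 and 34 the only one was the receptor Pigr, so no antibody transcript passed there. Pigr rose in C57BL/6 mice at day 32 by 1.91 (adjusted p = 0.00459, where 1.65% of all genes passed and 1.35% rose) and at day 34 by 1.09 (adjusted p = 0.000205, where 8.22% passed, 5.26% higher and 2.96% lower). At day 32 its call was lost without unexposed replicate 2. It was also lost without the arrays holding squamous transcripts, although the difference stayed at 1.91. At that day these were CD40L-KO arrays, which share the estimate of the spread. At day 34 the difference of Pigr without the arrays holding squamous transcripts was 1.62, with 1 unexposed mouse left. Over all genes, 678 passed at day 34 and 17 without those arrays. At day 14 Igha was the only antibody gene to pass, where 0.267% of all genes did and 0.218% rose. In CD40L-KO mice of day 32, 0 of 28 passed in limma, where 0.0727% of all genes did, and 11 had an unadjusted p below 0.05, where 13.9% of all genes did. Their median difference was 0.51 against 0.06 over all genes, with Ighv1-54 at 1.91 (adjusted p = 0.193). At day 7, day 21 and in CD40L-KO mice at day 35, 0% of all genes passed, 0 of the 28 antibody genes did, and 1 antibody gene each had an unadjusted p below 0.05, where 6.60%, 11.6% and 9.34% of all genes did.

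Genes of the cells that make antibodies had lower correlations with the lead probe set than the antibody transcripts. Over the 20 measured genes of antibody-secreting cells, among them the regulators Xbp1 and Irf4, the median r was 0.16, and over the 23 measured B cell identity genes it was 0.23, against 0.75 over the antibody genes. With the group means subtracted these medians were 0.05, 0.32 and 0.56. The highest B cell genes were then Spib, a B cell transcription factor (0.49), and the receptor chains Cd79a (0.48) and Cd79b (0.47). The mean level of a list correlated more highly than its median gene. Over the 95 arrays r was 0.43 for the antibody-secreting cell list and 0.41 for the B cell list, against 0.92 for the antibody genes without Pigr.

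At day 41, 0 of 20 and 0 of 23 passed in limma, with 3 and 5 at an unadjusted p below 0.05, where 7.39% of all genes had one. At day 34, where 5.26% of all genes rose and 2.96% were lower, 2 of the 20 (10.0%) rose, the endoplasmic reticulum protein Creld2 by 0.54 and the costimulatory receptor Cd28 by 0.53. Of the 23 B cell genes 7 passed (30.4%): 3 rose, Cd72 by 0.91, Cd83 by 0.58 and the invariant chain Cd74 by 0.57, and 4 were lower, the B cell factor Pax5 by -0.68, the kinase Blk by -0.65, the receptor chain Cd79a by -0.61 and Ms4a1, which encodes CD20, by -0.55. At day 32 Cd72 rose by 1.69 and Cd83 by 1.19 in C57BL/6 mice, while 0 of the 20 antibody-secreting cell genes passed in limma, with 5 at an unadjusted p below 0.05, where 17.5% of all genes had one. In the remaining comparisons 0 genes of either list passed in limma, with 0 to 6 per list at an unadjusted p below 0.05, where 6.60% to 13.9% of all genes had one.

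These calls changed with the arrays kept. Without the arrays holding squamous transcripts 0 genes of either list passed at either day. At day 32 no C57BL/6 array held these transcripts, so the differences of Cd72 and Cd83 stayed at 1.69 and 1.19, and with the spread of fewer arrays their adjusted p in limma became 0.114 and 0.0957. At day 34, where 1 unexposed mouse remained, Creld2 went to 0.17, Cd28 to 0.41, Cd72 to 0.71, Cd83 to 0.80, Cd74 to 0.68, Pax5 to -0.48, Blk to -0.46, Cd79a to -0.45 and Ms4a1 to 0.03. Among the B cell genes at day 34, leaving out unexposed replicate 1 left 4 calls and leaving out unexposed replicate 5 gave 11. At day 32, 0 B cell genes passed without any one of exposed replicates 1 and 3 and both unexposed replicates.

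Genes of coenzyme Q synthesis correlated little with the lead probe set. Whether they share a function with Adck1 was not tested. The 7 measured ones were Coq3, Coq4, Coq5, Coq7, Coq9, Coq10a and Fdx1, none of which is a UbiB member. Of these 7, 0 passed in limma in any of the 8 comparisons. The count with an unadjusted p below 0.05 was between 0 and 2, where 6.60% to 24.3% of all genes had one. At day 41 their median difference was -0.08, with the range from -0.28 to 0.04. Over the 95 arrays their median r with the lead probe set was -0.02, from -0.25 for Fdx1, an electron donor of the mitochondrion, to 0.31 for Coq3, a methyltransferase of coenzyme Q synthesis. The UbiB members Coq8a, Coq8b, Adck2 and Adck5 were not analysed here. A further list held 18 genes of the mitochondrial membranes, inner and outer. Of these, 0 passed in limma in the 7 comparisons other than day 34, where 0% to 1.65% of all genes did. At an unadjusted p below 0.05 there was 1 at day 41, where 7.39% of all genes had one. In the rest of these comparisons there were 0 to 3, where 6.60% to 17.5% of all genes had one. At day 34 the outer membrane import proteins Mtx1 and Mtx2 rose by 1.02 and 0.32, and the cristae protein Immt was lower by -0.87, 3 of 18 where 8.22% of all genes passed. Without the arrays holding squamous transcripts these differences were 0.92, 0.14 and -0.07, and 0 of the 3 passed.

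The neighbours of Adck1 on the chromosome also correlated little with the lead probe set. Over the 20 measured genes nearest to Adck1, 10 on each side, the median r with the lead probe set was 0.04 and the highest was 0.40, for the lymphoid receptor Gpr65. The nearest were Gm2022 and Snw1 on one side and the thyroid genes Dio2 and Tshr on the other. At day 41 they differed by 0.02, 0.22, 0.00 and -0.01. Of the 20 neighbours 0 passed in limma at that day, where 0.388% of all genes did. At an unadjusted p below 0.05 there was 1, where 7.39% of all genes had one. In the remaining comparisons other than day 34, 0 of 20 passed too, where 0% to 1.65% of all genes did. At an unadjusted p below 0.05 there were 5 in CD40L-KO mice at day 32, where 13.9% of all genes had one. In C57BL/6 mice at day 32 there were 3, where 17.5% had one. In the rest there were 1 or 2, where 6.60% to 11.6% had one. At day 34 Gpr65 rose by 0.76 and Ptpn21 was lower by -0.70, which at 2 of 20 (10.0%) is near the 8.22% of all genes that passed. Without the arrays holding squamous transcripts they differed by 0.90 and -0.39, and neither passed.

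Marker lists of other cells were read beside the day 41 difference. The mean level of 12 T cell markers ran from 5.84 to 6.23 with exposure and from 5.42 to 6.02 without, and that of 13 macrophage markers 7.67 to 8.05 against 7.32 to 7.59. Of these, 1 T cell (8.33%) and 2 macrophage markers (15.4%) rose in limma, where 0.388% of all genes passed. At an unadjusted p below 0.05 in limma, 6 T cell and 8 macrophage markers were higher, where 7.39% of all genes had one. The 6 markers of lymphoid tissue stroma lay at 4.27 to 4.89 against 4.21 to 4.56, and the B cell list at 6.17 to 6.85 against 6.43 to 6.75. The squamous list lay at 4.75 to 5.09 against 4.78 to 5.14, below the level that set the squamous arrays apart. The 13 skeletal muscle markers lay at 4.69 to 7.18 against 4.97 to 5.30 and the 5 red cell markers at 6.52 to 6.90 against 6.75 to 7.07, with 0 calls in either list. Over the 95 arrays the lead probe set correlated at 0.51 with the T cell score, 0.49 with the stroma score and 0.47 with the macrophage score. It had 0.41 with the B cell score and -0.10 with the squamous score. With the group means subtracted, these values were 0.32 for T cells, 0.52 for stroma, 0.41 for macrophages, 0.52 for B cells and 0.07 for the squamous list. With the group means subtracted, the lead probe set had 0.21 with the mean of the antibody-secreting cell genes. It had 0.77 with the mean of the antibody genes without Pigr. The part of these cells in the Adck1 values was not tested.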

How the data were processed

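Total RNA of whole mouse lung was labelled with biotin for Affymetrix arrays with 1 sample per array, per the labels' protocols. The authors deposited 1 table of linear intensity values (95 arrays by 12487 probe sets, 1 value missing). The sources used here do not give how probes were summarised. With 2% trimmed at each end, array means lay between 100.06 and 100.08, so the intensities were already scaled. Array medians spanned 35.5 to 46.3, and the number of arrays in a group, from 2 to 10, limits the precision.

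Values were used as deposited, as log2(intensity + 8). The platform annotation paired 10855 probe sets with 1 symbol and 396 with several, and left 1236 without. The brightest probe set represented each of 8252 genes, of which 8238 matched the RefSeq gene table of build GRCm38.p6. Symbols can be old. Groups were fitted per experiment in R 4.3.3 with limma 3.58.1 (lmFit, eBayes), with Benjamini-Hochberg adjustment over all genes and a threshold of 0.05. Tables came from pandas 2.3.3 and figures from matplotlib 3.10.9 under Python 3.11.15. The fit was tested on simulated data. The arrays of a group are separate animals per the design text.

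Adck1 and all gene lists were chosen with earlier results of these data known. Named genes were Igha, Jchain, the 10 highest and 5 lowest correlates and the 10 highest after subtracting group means. Also named were called list members, up to 8 per list and comparison, the measured coenzyme Q genes and the 2 nearest neighbours on each side. Genes named outside this rule were chosen after their values were seen. Among them were Igkv8-19, Ighm and Ighd at day 41, the ninth call of a list, and the 5 highest correlates outside the antibody list. Alternatives were offsets of 2 and 32, a filter keeping 5502 brighter genes, quantile normalization, the replicate block, the mean of a gene's probe sets, 1 fit of all arrays, leaving out each array and, chosen after seeing the data, leaving out squamous arrays or 2 groups.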

Additional observations from a re-analysis of the deposited data

Results flagged for a closer look

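Of 60 groups of 4 to 10 arrays examined over the 3 probe sets, Igha and Jchain, 8 held an array far from the others by Dixon's criterion, where chance gives about 1 in 20. On the lead probe set, replicate 6 of the unexposed C57BL/6 mice of day 14 was low at 4.07 and replicate 2 of the unexposed CD40L-KO mice labelled day 14 was low at 5.13. On the second probe set, replicate 4 of the unexposed C57BL/6 mice of day 14 was high at 6.13 and replicate 2 of the unexposed mice of day 7 at 6.42. On the third probe set, replicate 2 of the exposed C57BL/6 mice of day 7 was high at 6.45, and the same mouse was high in Jchain at 7.39. Replicate 2 of the unexposed C57BL/6 mice of day 7 was also high in Jchain, at 8.06. Igha was high in replicate 10 of the C57BL/6 mice exposed for 34 days, at 10.78, the mouse that led its group on all 3 probe sets annotated to Adck1.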

How the results depend on the processing

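The difference of the lead probe set moved by less than the pooled SD of the groups compared under all alternatives run except the mean of all 3 probe sets. That mean took the difference from 2.01 to 1.23 at day 41 and from 1.02 to 0.53 in CD40L-KO mice at day 32. The limit is wide where mice spread widely: at day 34 the pooled SD was 1.02 and the difference 0.15. Leaving out each array gave 1.88 to 2.12 at day 41, 0.73 to 1.35 in CD40L-KO mice at day 32, -0.17 to 0.37 at day 32, -0.11 to 0.46 at day 34, -0.22 to 0.25 at day 7, 0.35 to 0.64 at day 14, -0.09 to 0.20 at day 21 and -0.14 to 0.04 at day 35. The correlation with Igha moved from 0.75 to 0.60 as Spearman's rho or without the exposed C57BL/6 mice of day 41, 0.44, 0.33 and 0.12 in the experiments of day 32, days 7 to 21 and day 35, 0.49 in CD40L-KO and 0.45 in unexposed mice, 0.45 without days 41 and 75, and 0.33 within groups. With Jchain it moved from 0.83 to 0.73, 0.66, 0.71, 0.65, 0.43, 0.59, 0.66 and 0.65 in the same order, without the value lacking day 41 alone, and to 0.89 over group means.

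The counts over all genes moved more, and the cause was not tested. With 1 fit of all arrays the calls went from 136 to 733 at day 32, 6 to 86 in CD40L-KO mice at day 32, 678 to 1279 at day 34, 32 to 96 at day 41, 22 to 38 at day 14, and from 0 to 5 at day 21 and 21 at day 35. Without squamous arrays they were 4, 0 and 17 at day 32, in CD40L-KO mice at day 32 and at day 34, 13 at day 14 and 2 at day 21. In none of the 8 comparisons did every same-numbered pair of mice correlate above 0.1 in its deviations from the group means (lowest pair -0.42, highest 0.51). Mice of the same number were therefore not paired in the main fit, and whether some shared a batch was not tested. With the replicate number as a block the calls were 42 at day 32, 0 in CD40L-KO mice, 20 at day 41 and 1 at day 7. An offset of 32 gave 209 at day 32, 13 in CD40L-KO mice, 1 at day 7 and 4 at day 21. An offset of 2 gave 2 in CD40L-KO mice at day 32 and 3 at day 35. Without dim genes they were 225, 26, 1 and 3 at day 32, in CD40L-KO mice, at day 7 and at day 21. Quantile normalization gave 2 at day 7, and the mean of all probe sets gave 3 in CD40L-KO mice at day 32 and 2 at day 7. Leaving out each array gave 6 to 584 at day 32, 0 to 54 in CD40L-KO mice, 449 to 1313 at day 34, 18 to 41 at day 41, 0 to 4 at day 7, 10 to 51 at day 14, 0 to 7 at day 21 and 0 to 1 at day 35.

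The 9 antibody genes of day 41 were 5 with the block and 5 to 9 without each array. The 1 of day 32 was 0 without squamous arrays and 0 to 1 without each array, and the 1 of day 34 was 0 without squamous arrays and 2 in 1 fit. The 0 in CD40L-KO mice at day 32 became 1 with an offset of 32 and without dim genes, as did the 0 of day 21, which was also 1 in 1 fit and 0 to 1 without each array. Where 1 array of a group remained, it was assumed to vary like the other groups.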
